A study of Mus musculus with 12 samples.

Results

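The collagen genes of mouse muscle satellite cells are described here across quiescence, activation and loss of *Gli3*. They were chosen as the protein-coding genes whose symbol starts with Col, a number, the letter a and a number, which gave 44 of the 25093 genes in the count table. One of these, *Col4a3bp*, encodes a ceramide transfer protein and not a collagen, so 43 collagen chain genes were left. They were sorted into 8 fibrillar genes, 8 genes of collagens V and VI and 9 genes of basement membranes. The rest were 9 genes of the FACIT collagens that sit on the surface of fibrils, 3 short-chain network genes, 4 transmembrane genes and 2 others. Collagen V is fibrillar by structure too, but was set with collagen VI as collagens of the satellite cell niche. The fibrillar class below therefore leaves out collagen V.

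Satellite cells are the stem cells of skeletal muscle, and *Gli3* encodes a transcription factor that mostly represses Hedgehog target genes. All mice carried Pax7-CreERT2/+ and a R26R-YFP reporter, received tamoxifen and were 3 to 4 months old. Control animals were Gli3+/+, while in Gli3fl/fl animals the Pax7-driven Cre removed exon 8 of *Gli3* in satellite cells only. Quiescent satellite cells (QSCs) were sorted from uninjured hindlimb muscles of 2 to 3 pooled mice per library, with 3 control and 3 *Gli3*-deleted libraries. Activated satellite cells (ASCs) came from the tibialis anterior and gastrocnemius of 1 mouse per library, 3 days after cardiotoxin injury, in 6 libraries. The ASC libraries were kept as 1 group, because the labels of 2 of them disagree on the genotype and their columns could not be tied to a genotype. They are named A to F here, in ascending order of the animal number in their column name. By either label the group holds 3 libraries of each genotype. Cells positive for CD31, CD45, SCA1 or CD11b were gated out of all sorts. State, muscles taken, mice pooled and sorting marker (CD34 for QSCs, VCAM1 for ASCs) all differed between QSCs and ASCs and cannot be told apart in that comparison.

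Collagens are trimers wound from chains that are often encoded by separate genes, so the chains made by a cell limit which trimers it can secrete. Fibrillar collagens I, II, III and XI form the banded fibrils that carry load. Collagen IV forms the meshwork of the basement membrane that covers each muscle fibre and the satellite cells lying on it, and collagens XV and XVIII are basement membrane proteoglycans. Collagen V, made by satellite cells under Notch signalling, acts through the calcitonin receptor to keep them quiescent, and collagen VI supports their self-renewal.

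Library depth was 36886130 to 65750131 estimated counts. *Gli3* itself was at 11.3, 9.63 and 9.40 CPM (estimated counts relative to the TMM-scaled library size) in control QSCs and at 9.58, 10.7 and 6.27 CPM in *Gli3*-deleted QSCs (adjusted p = 0.916), and a gene-level count does not separate a transcript that lacks exon 8. The satellite cell marker *Pax7* was present in all libraries, at 800.3 to 1181 CPM in QSCs and 50.9 to 117 CPM in ASCs. One library, ASC D, stood apart. Its correlation with the other ASC libraries (log2 CPM, across genes) was 0.900 to 0.934, against 0.966 to 0.985 among the other 5. Summed CPM of 6 macrophage markers was 4701 in ASC D, 216 to 618 in the other ASC libraries and 10.2 to 25.5 in QSCs. For 6 Schwann cell markers the sums were 957, 24.1 to 90.7 and 34.2 to 100.1, for 6 tenocyte markers 871, 121 to 439 and 32.7 to 43.3, for 6 endothelial markers 384, 53.1 to 136 and 141 to 231, and for 6 mural cell markers 1076, 181 to 514 and 1422 to 2617. The 8 fibro-adipogenic markers summed to 1039, 190 to 451 and 2578 to 3184. Of these markers 6 were highest in ASC D, and there *Pdgfra* was at 54.6 CPM against 3.37 to 11.4 CPM in the other ASC libraries. In QSCs, most of the endothelial sum came from *Tek* (82.0 to 119 CPM) and most of the mural sum from *Notch3* (1280.3 to 2509.5 CPM). Most of the fibro-adipogenic sum came from *Gsn* (2008 to 2561 CPM) and *Dpt* (375 to 538 CPM). These QSC sums therefore do not speak for the whole lists. No marker of the lists was at 0 in every QSC library. Each comparison of ASCs with QSCs was therefore run with and without ASC D. Where a single log2 fold change of ASCs over QSCs is given below, it includes ASC D. In bulk samples, fewer cells of a type and less RNA per cell cannot be told apart.

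Promoter sequence was read for the genes whose changes are followed most closely below. *Col4a1* and *Col4a2*, the main collagen IV pair, lie head to head on opposite strands and overlap by 22 bases at their starts. A single window therefore spans both starts. *Col1a2* was the abundant fibrillar gene that rose most in ASCs, and *Col5a3* was the collagen V gene that fell with and without ASC D. RefSeq windows of 300 bases on GRCm38.p6 are shown 5′ to 3′ in lower case, with the CCAAT box (CCAAT, or ATTGG on the other strand) and the GC box (GGGCGG, or CCGCCC on the other strand) in capitals.
Col4a1 and Col4a2, chr8:11312666-11312965, plus strand: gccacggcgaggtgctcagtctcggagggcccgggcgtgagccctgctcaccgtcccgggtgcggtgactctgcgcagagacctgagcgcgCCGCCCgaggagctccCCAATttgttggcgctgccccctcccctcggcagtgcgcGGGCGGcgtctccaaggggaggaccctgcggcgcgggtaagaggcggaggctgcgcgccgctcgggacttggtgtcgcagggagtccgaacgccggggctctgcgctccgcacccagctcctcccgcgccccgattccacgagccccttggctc
Col1a2, chr6:4505368-4505667, plus strand: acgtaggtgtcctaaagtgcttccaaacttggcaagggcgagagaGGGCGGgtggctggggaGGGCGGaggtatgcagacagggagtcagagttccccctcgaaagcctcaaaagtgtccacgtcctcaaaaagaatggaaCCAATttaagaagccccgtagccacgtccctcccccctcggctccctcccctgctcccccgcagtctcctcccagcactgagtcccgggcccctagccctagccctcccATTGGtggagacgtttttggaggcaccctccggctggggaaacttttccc
Col5a3, chr9:20815018-20815317, minus strand: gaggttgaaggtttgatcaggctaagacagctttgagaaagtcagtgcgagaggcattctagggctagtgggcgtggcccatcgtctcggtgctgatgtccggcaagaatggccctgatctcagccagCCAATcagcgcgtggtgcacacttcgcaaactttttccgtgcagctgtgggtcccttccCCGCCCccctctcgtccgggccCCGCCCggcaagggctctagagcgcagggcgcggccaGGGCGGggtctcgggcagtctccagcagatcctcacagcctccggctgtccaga
The *Col4a1* and *Col4a2* window held 1 CCAAT box and 2 GC boxes, the *Col1a2* window 2 and 2, and the *Col5a3* window 1 and 3. Over 37 windows of 34 collagen genes, 12 held a CCAAT box and 22 a GC box, while 37.4% and 35.7% of all 32851 windows did. The letters GACCACCCA, the core that GLI factors bind, or their complement were in none of the 37 collagen windows and in 0.253% of all windows. These matches describe letters in a window and not binding. With letters this rare, their absence from 37 windows says little. No window was found for some collagen genes, *Col26a1*, *Col1a1* and *Col4a3* among them, so these genes were not searched.

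QSCs devoted 0.701% to 1.12% of all counts to the 43 collagen genes, and 11 of these genes averaged at least 100 CPM. *Col3a1*, the fibrillar collagen of compliant tissue, was the highest per length of transcript at 538 CPM per kb (mean of 6 QSC libraries). *Col5a3* followed at 219.9 CPM per kb, *Col4a1* at 215, *Col6a1* at 119, *Col4a2* at 87.7, *Col15a1* at 78.6, *Col5a2* at 67.0, *Col5a1* at 52.6 and *Col6a2* at 34.0. Collagen I, the chief collagen of scar and tendon, was lower, with *Col1a1* at 27.4 and *Col1a2* at 11.5 CPM per kb. *Col5a3* and *Col4a1* did not differ beyond their spread, since their CPM ranges over the 6 QSC libraries were 854 to 1826 and 1019 to 2503. Low in QSCs were the long collagen VI chains *Col6a3*, at 1.32 CPM per kb, and *Col6a6*, at 3.35, as well as *Col11a1*, *Col2a1*, *Col14a1*, *Col22a1*, *Col13a1* and *Col10a1*, at 0.0605 to 0.225 CPM per kb. Among QSC libraries, control QSC 3 had the highest *Col4a1* (2503 CPM, against 1019 to 1347 CPM in the other 5) and *Col4a2* (962 CPM, against 406 to 576 CPM).

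**Figure D1:**
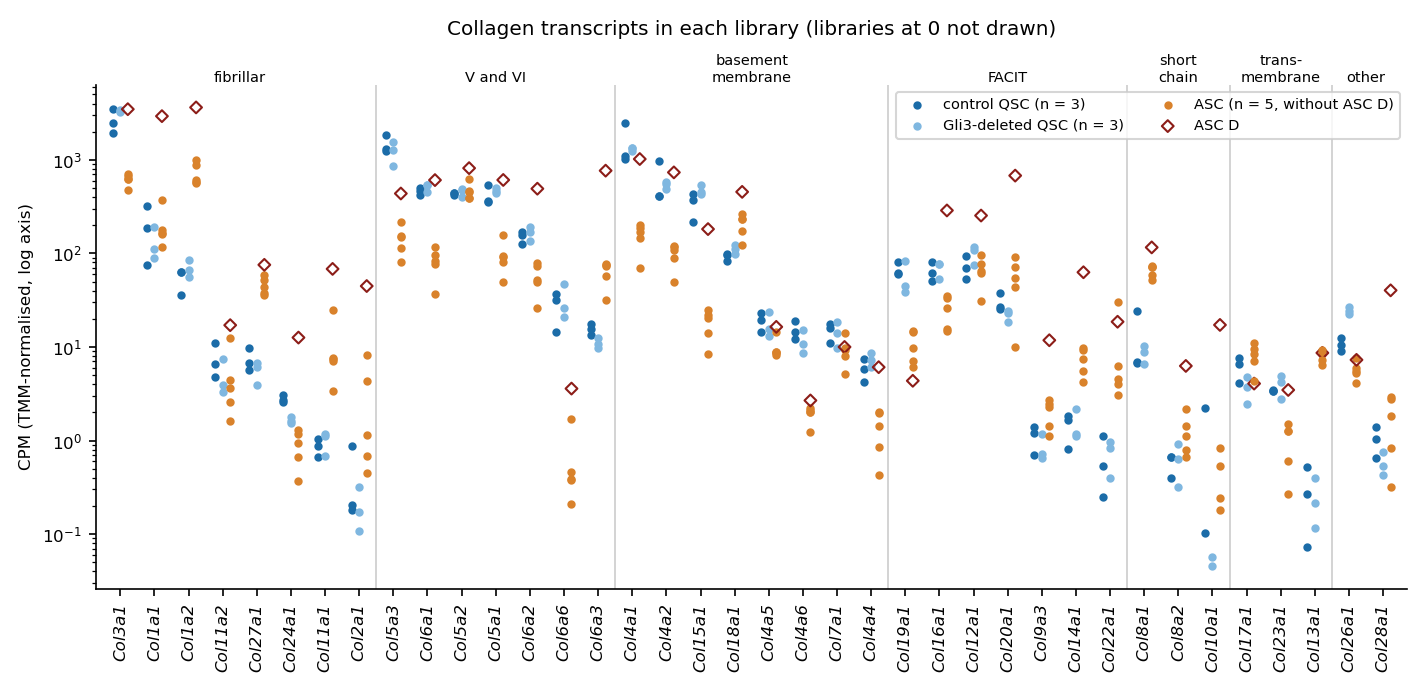
TMM-normalised CPM on a log axis for the 38 collagen genes with a mean of at least 1 CPM over 12 libraries, grouped by class, 1 point per library. *Col3a1*, *Col5a3* and *Col4a1* have the highest QSC medians (3301, 1293 and 1282 CPM), and the open diamond of ASC D lies above the other ASC libraries for most genes, as for *Col1a1* (2934 CPM against 118 to 376 CPM).

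Per length, fibrillar genes other than those of collagen V made up 32.2% to 42.9% of the summed collagen level in QSCs. Collagens V and VI made up 27.3% to 39.0% and basement membrane collagens 24.3% to 32.1%. In the 5 ASC libraries without ASC D the fibrillar share was 47.5% to 58.2%, that of collagens V and VI 20.6% to 30% and that of basement membranes 10.8% to 17.7%. The fibrillar and basement membrane shares did not overlap between QSCs and ASCs, while those of collagens V and VI did. Summed over all classes, the level was 1147 to 1983 CPM per kb in QSCs, 407 to 668 in those 5 ASC libraries and 3097 in ASC D. The leading gene was *Col3a1* in all 6 QSC libraries and in ASC C, and *Col1a2* in the other 5 ASC libraries. These sums carry no test.

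**Figure D2:**
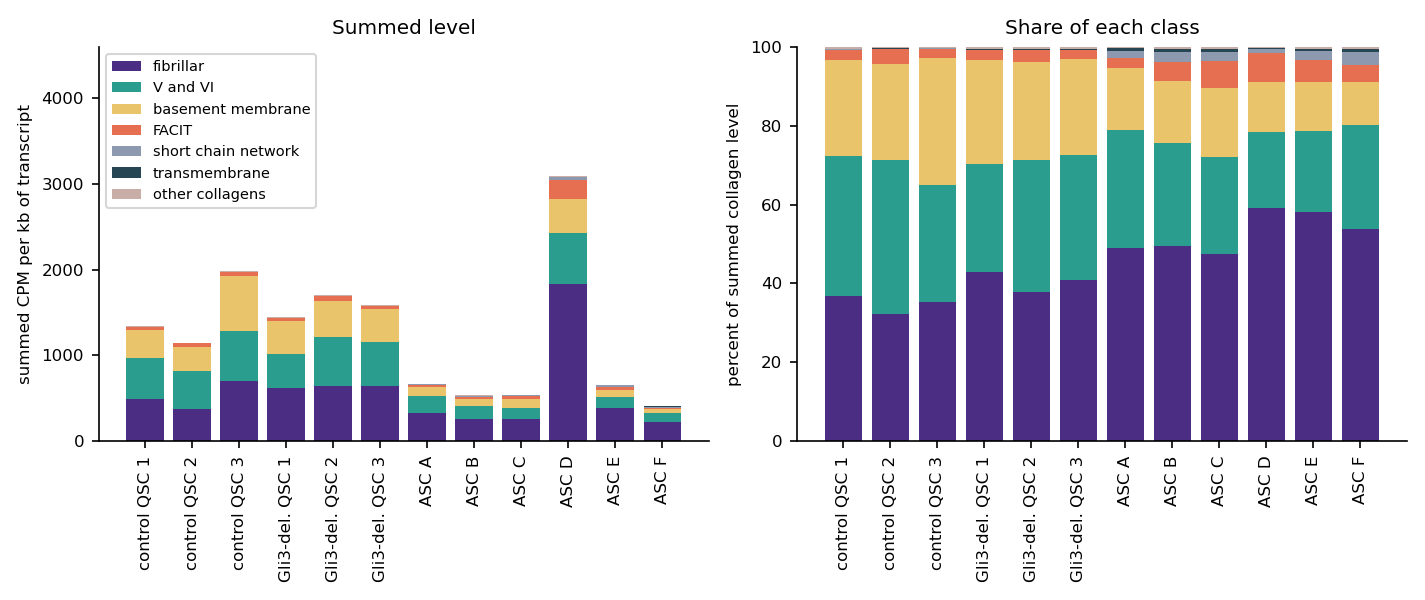
Summed collagen level in CPM per kb of transcript (left) and the percent of it in each class (right), 1 bar per library, stacked by class. The bars of 5 ASC libraries reach 407 to 668 CPM per kb against 1147 to 1983 in QSCs, ASC D reaches 3097, and the basement membrane share falls from 24.3% to 32.1% in QSCs to 10.8% to 17.7% in ASCs other than ASC D.

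Activation was compared first, since it moved most collagen genes. With all 12 libraries, 17 of the 43 collagen genes rose in ASCs and 14 fell (edgeR quasi-likelihood test, Benjamini-Hochberg adjusted p under 0.05 over all genes and a fold change of at least 1.2). Of all 25093 genes, 31.1% rose and 27.8% fell. Without ASC D, 15 rose and 19 fell, against 30.1% and 30.6% of all genes. Both fits called 28 genes in the same direction, *Col1a1*, *Col10a1* and *Col28a1* rose only with ASC D included, and *Col5a1*, *Col6a2*, *Col16a1*, *Col24a1*, *Col4a3* and *Col17a1* passed the test only without it. The median log2 fold change over the 43 genes was 0.32 with ASC D and -0.33 without, beside 0.01 and -0.07 over all genes. Leaving out each of the 12 libraries in turn, 25 of the 31 called genes passed in every fit and all 31 kept their direction, while *Col1a1* passed in 4 fits, *Col6a1* in 2, *Col4a2* in 1, *Col7a1* in 4, *Col10a1* in 6 and *Col28a1* in 11. By class the median log2 fold change, with and without ASC D, was 2.51 and 1.55 for fibrillar genes other than those of collagen V. It was -0.79 and -1.88 for collagens V and VI, -1.47 and -2.31 for basement membranes and 1.92 and 1.02 for FACIT collagens.

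**Figure D3:**
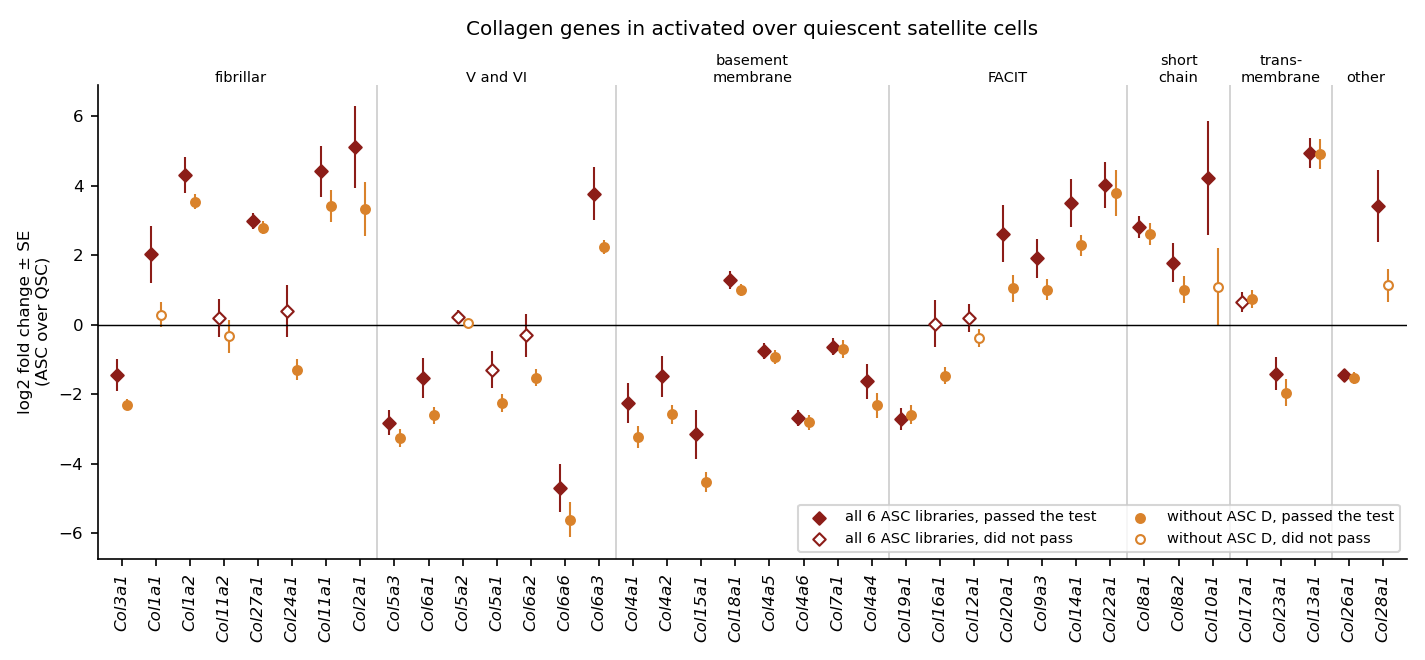
Log2 fold change of ASCs over QSCs with its standard error for each collagen gene, with all 6 ASC libraries (diamonds) and without ASC D (circles), where filled symbols passed the test. Basement membrane genes other than *Col18a1* lie below 0, *Col1a2* (4.31 and 3.55), *Col13a1* (4.96 and 4.92) and *Col6a3* (3.78 and 2.24) lie above, and *Col1a1* drops from 2.04 to 0.30 without ASC D.

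Fibrillar genes moved in both directions. *Col1a2* was at 35.8, 63.0 and 84.3 CPM (lowest, median and highest of 6) in QSCs and at 569, 745 and 3637 CPM in ASCs. All ASC libraries were above all QSC libraries, and the log2 fold change was 4.31 (SE 0.51, adjusted p = 1.26e-05), or 3.55 (SE 0.22, adjusted p = 2.29e-08) without ASC D. Its partner *Col1a1* ranged from 74.8 to 320.1 CPM in QSCs and from 118 to 376 CPM in the 5 other ASC libraries, which overlap. It reached 2934 CPM in ASC D alone, so its log2 fold change of 2.04 (SE 0.82, adjusted p = 0.0478) became 0.30 (SE 0.36, adjusted p = 0.501) without that library. *Col3a1* moved the other way, from 1935, 3301 and 3494 CPM in QSCs to 474, 651 and 3482 CPM in ASCs. The 5 ASC libraries other than ASC D, at 474 to 707 CPM, were below every QSC library. Its log2 fold change was -1.44 (SE 0.47, adjusted p = 0.0188, and 0.0692 against control QSCs alone), and -2.29 (SE 0.16, adjusted p = 8.96e-08) without ASC D.

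Of the 5 other fibrillar genes, *Col27a1*, *Col11a1* and *Col2a1* rose in both fits. *Col27a1*, a cartilage and tendon fibril collagen, rose from 3.93 to 9.71 CPM in QSCs to 35.9 to 75.5 CPM in ASCs (log2 fold change 2.98, SE 0.23, adjusted p = 2.74e-07), with no overlap and little change without ASC D (2.80). *Col11a1* was at 0.661 to 1.16 CPM in QSCs and 3.42 to 24.9 CPM in the 5 ASC libraries, with 68.3 CPM in ASC D (4.42, and 3.42 without ASC D). *Col2a1*, best known from cartilage, was at 0.107 to 0.874 CPM in QSCs and 0.451 to 8.21 CPM in the 5 ASC libraries, with 44.8 CPM in ASC D (5.12, and 3.34 without). The QSC and ASC ranges of *Col2a1* overlap. *Col24a1* was at 1.54 to 3.03 CPM in QSCs, 0.372 to 1.30 CPM in the 5 ASC libraries and 12.6 CPM in ASC D. It passed the test as a fall only without ASC D (-1.29, adjusted p = 0.00246) and was at 0.41 with it (adjusted p = 0.656). *Col11a2*, at 3.34 to 11.1 CPM in QSCs and 1.62 to 17.1 CPM in ASCs, passed neither fit. Of 6 tenocyte markers, 5 were called higher in ASCs, against 31.1% of all genes. Among them *Scx* was at 5.88 to 10 CPM in QSCs and 33.4 to 44.6 CPM in ASCs. Of 8 fibro-adipogenic markers, 4 were called higher and 2 lower, and of 6 mural markers 3 and 3, where 27.8% of all genes were called lower. All 6 macrophage markers and 2 of 6 Schwann cell markers were called higher, and 1 of 6 endothelial markers lower. The part of any of these markers in the fibrillar changes was not tested.

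Collagen V chains parted. *Col5a3*, the chain that was highest in quiescence, fell from 854, 1293 and 1826 CPM in QSCs to 80.7, 152 and 437 CPM in ASCs. No library overlapped, and the log2 fold change was -2.81 (SE 0.37, adjusted p = 3.41e-05), or -3.26 without ASC D. *Col5a1*, found in every collagen V trimer, was at 352 to 533 CPM in QSCs and at 49.2 to 157 CPM in the 5 ASC libraries, but at 610 CPM in ASC D. It missed the threshold with that library (-1.29, SE 0.53, adjusted p = 0.0533) and fell without it (-2.25, SE 0.25, adjusted p = 5.68e-06). *Col5a2* was at 397 to 484 CPM in QSCs and 388 to 816 CPM in ASCs, and its log2 fold change of 0.24 (SE 0.18) did not pass the test (adjusted p = 0.255). *Col5a2* lies 24614 bases from *Col3a1*, tail to tail on chromosome 1, and only the latter fell.

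Collagen VI assembles from *Col6a1* and *Col6a2* products with a longer chain from *Col6a3*, *Col6a5* or *Col6a6*. In QSCs *Col6a6* was at 14.6, 29.0 and 46.6 CPM, and in ASCs at 0.212, 0.422 and 3.59 CPM. It fell by 4.70 on the log2 scale (SE 0.69, adjusted p = 7.79e-05), with no overlap. *Col6a3* did the reverse, from 9.67, 13.1 and 17.8 CPM in QSCs to 31.4, 74.7 and 767 CPM in ASCs. All ASC libraries were above all QSC libraries, also without ASC D, where the log2 fold change went from 3.78 (SE 0.76, adjusted p = 9.37e-04) to 2.24 (SE 0.20, adjusted p = 8.26e-07). *Col6a1* was at 426 to 545 CPM in QSCs and 37.2 to 117 CPM in the 5 ASC libraries, with 608 CPM in ASC D (-1.53, adjusted p = 0.0346, and up to 0.0697 with 1 library left out). Without ASC D its log2 fold change was -2.60 (adjusted p = 8.76e-07). *Col6a2* was at 126 to 190.4 CPM in QSCs, 25.8 to 79.5 CPM in the 5 ASC libraries and 492 CPM in ASC D. It passed the test only without that library (-1.52, adjusted p = 1.25e-04, and -0.30 with it, adjusted p = 0.697).

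Of 9 basement membrane genes, 7 fell and *Col18a1* rose, while *Col4a3* did not pass (-0.78, adjusted p = 0.209). Of all genes 27.8% fell and 31.1% rose. Without ASC D, 8 fell and *Col18a1* rose, beside 30.6% and 30.1% of all genes. *Col4a1* was at 1019, 1282 and 2503 CPM in QSCs and at 70.2, 176 and 1021 CPM in ASCs, where ASC D alone overlapped the QSCs. Its log2 fold change was -2.25 (SE 0.58, adjusted p = 0.00480), and -3.23 (SE 0.31, adjusted p = 1.29e-06) without ASC D. The start of *Col4a2* lies in the same window printed above. *Col4a2* went from 406 to 962 CPM to 49.9 to 120.2 CPM, with 735 CPM in ASC D (-1.47, adjusted p = 0.0463, and -2.57, adjusted p = 4.41e-06, without). Its call with ASC D was lost without any 1 other library, with an adjusted p of at most 0.104, which was the fit without control QSC 3. The remaining collagen IV chains lie in 2 further head-to-head pairs. *Col4a5* and *Col4a6*, 1308 bases apart on chromosome X, fell by 0.74 and 2.69 on the log2 scale (adjusted p = 0.0136 and 6.23e-07). *Col4a6* went from 8.58 to 18.9 CPM to 1.22 to 2.68 CPM without overlap, while *Col4a5* went from 13.1 to 23.4 CPM to 8.24 to 16.4 CPM with overlap. *Col4a4*, 71 bases from *Col4a3* on chromosome 1, fell from 4.27 to 8.71 CPM to 0.425 to 6.08 CPM (-1.62, adjusted p = 0.0159). *Col4a3* had a mean under 1 CPM.

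*Col15a1* showed the strongest fall of this class, from 219, 431 and 538 CPM in QSCs to 8.44, 21.2 and 182 CPM in ASCs. The groups did not overlap, and the log2 fold change was -3.15 (SE 0.70, adjusted p = 0.00192), or -4.51 (SE 0.29) without ASC D. *Col18a1*, the source of endostatin, which overlaps *Slc19a1* on the other strand, rose from 83.0, 98.3 and 122 CPM to 123, 234 and 455 CPM (1.29, SE 0.25, adjusted p = 7.19e-04, and 1.00 without ASC D). The lowest ASC library was at 123 CPM and the highest QSC library at 122 CPM. *Col7a1*, the anchoring fibril collagen of skin, went from 9.65 to 18.6 CPM to 5.10 to 14.1 CPM (-0.63, adjusted p = 0.0391, and up to 0.104 with 1 library left out).

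FACIT collagens split as well. *Col19a1*, which myogenic cells express in the embryo, was at 38.4, 61.4 and 82.0 CPM in QSCs and 4.35, 8.44 and 14.7 CPM in ASCs (-2.70, SE 0.32, adjusted p = 1.22e-05), and ASC D held its lowest value. Its tail-to-tail neighbour *Col9a1*, 9205 bases away, was under 0.04 CPM in QSCs. *Col22a1*, of the junction between muscle and tendon, rose from 0.246 to 1.12 CPM to 3.08 to 30.1 CPM (4.03, SE 0.67, adjusted p = 2.03e-04), and ASC E, not ASC D, was highest. *Col14a1* rose from 0.808 to 2.16 CPM to 4.23 to 62.9 CPM (3.51, and 2.29 without ASC D) and *Col9a3* from 0.651 to 1.41 CPM to 1.11 to 11.8 CPM (1.92 and 1.02). *Col20a1*, which overlaps *9230112E08Rik* on the same strand, was at 18.3 to 38.2 CPM in QSCs and 9.95 to 90.8 CPM in 5 ASC libraries, but at 679 CPM in ASC D (2.63, adjusted p = 0.0135, and 1.05, adjusted p = 0.0304). ASC A, at 9.95 CPM, lay below every QSC library for this gene. *Col16a1* was at 50.3 to 80.8 CPM in QSCs, 14.8 to 35.1 CPM in 5 ASC libraries and 288 CPM in ASC D (0.04, adjusted p = 0.961, and -1.46, adjusted p = 1.64e-04). *Col12a1*, at 53.7 to 116 CPM in QSCs and 31.2 to 254 CPM in ASCs, passed neither fit.

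Among the remaining classes, *Col13a1* was the clearest rise, from 0.0735, 0.243 and 0.524 CPM in QSCs to 6.37, 8.54 and 9.39 CPM in ASCs. It encodes a transmembrane collagen of the neuromuscular junction. Groups were far apart, and the log2 fold change was 4.96 (SE 0.43, adjusted p = 8.77e-07) with ASC D, which at 8.64 CPM lay among the others, and 4.92 without it. *Col8a1* rose from 6.63 to 24.5 CPM to 52.5 to 116 CPM (2.82, SE 0.33, adjusted p = 1.19e-05), and *Col8a2* from 0.320 to 0.907 CPM to 0.663 to 6.27 CPM (1.79, and 1.02 without ASC D). *Col23a1* fell from 2.78 to 4.85 CPM to 0.265 to 3.47 CPM (-1.40, adjusted p = 0.0228). *Col17a1*, a hemidesmosome collagen, was at 2.44 to 7.56 CPM in QSCs and 4.06 to 11 CPM in ASCs (0.65, adjusted p = 0.0737, and 0.74, adjusted p = 0.0271, without ASC D). *Col28a1*, known from peripheral nerve, was at 0.426 to 1.40 CPM in QSCs and 0.318 to 2.91 CPM in 5 ASC libraries, with 40.3 CPM in ASC D (3.42, adjusted p = 0.0129, and 1.14, adjusted p = 0.0555). *Col10a1* was at 0 in 2 QSC libraries and at 17.2 CPM in ASC D, and at most 0.840 CPM in the other ASC libraries (4.23, adjusted p = 0.0421, and 1.09, adjusted p = 0.422). Genes with a mean under 1 CPM were *Col4a3*, *Col6a5*, *Col9a1*, *Col9a2* and *Col25a1*, of which *Col9a1* rose in both fits (4.93 and 3.03) on at most 3.49 CPM in any library. *Col4a3bp* ranged from 63.9 to 92.1 CPM over all libraries and did not reach the fold limit (0.19, adjusted p = 0.0399).

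Chains that assemble together did not keep their proportions. The ratio of *Col6a3* to *Col6a1* CPM was 0.0198 to 0.0358 in QSCs, 0.629 to 0.921 in 5 ASC libraries and 1.26 in ASC D. For *Col1a1* to *Col1a2* it was 1.31 to 5.08 in QSCs, 0.183 to 0.379 in 5 ASC libraries and 0.807 in ASC D, although collagen I trimers hold more of the *Col1a1* chain. The ratio of *Col5a3* to *Col5a2* was 2.15 to 4.16 in QSCs and 0.172 to 0.536 in ASCs, and that of *Col4a1* to *Col4a2* 2.25 to 2.73 and 1.39 to 1.68. Each of these 4 pairs was apart between QSCs and ASCs in all libraries. The pairs were picked after their values were seen, a CPM ratio is not corrected for length and is read only between libraries, and no test was run.

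**Figure D4:**
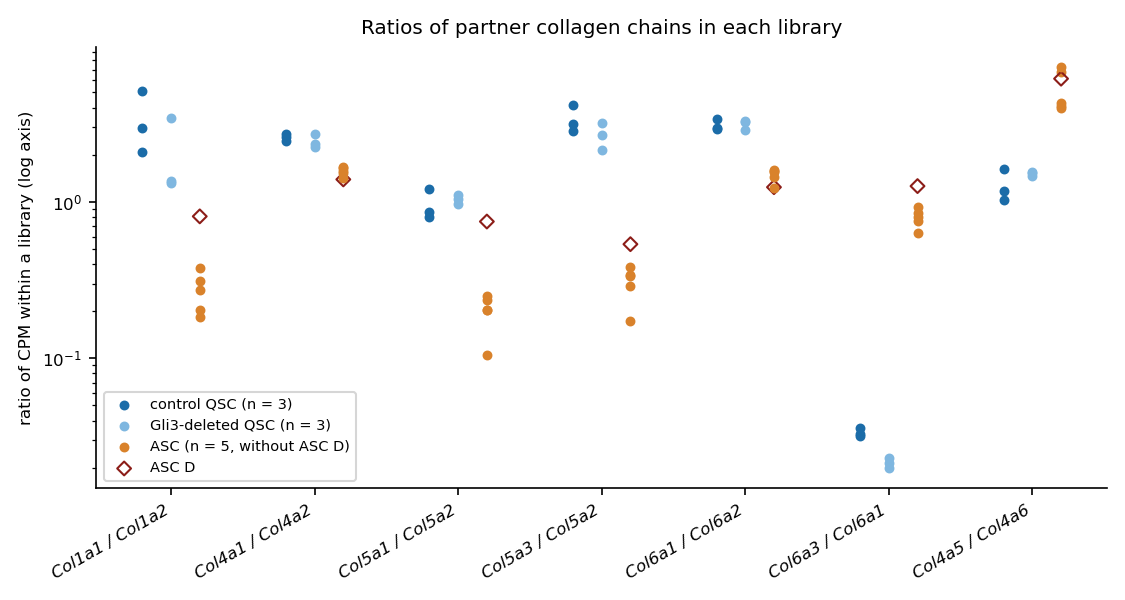
Ratio of CPM of partner chains within each library on a log axis, for 7 pairs. QSC and ASC points are apart for all 7 pairs, most narrowly for *Col5a1* to *Col5a2*, where ASC D (0.748) comes close to the lowest QSC library (0.794), and *Col6a3* to *Col6a1* moves most, from at most 0.0358 in QSCs to at least 0.629 in ASCs.

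Of 43 genes that modify, process or bind collagens, 18 rose and 11 fell in ASCs, and without ASC D 13 rose and 15 fell, beside 31.1% and 27.8% of all genes, or 30.1% and 30.6% without ASC D. Among 17 modifying enzymes and chaperones, 7 rose and 5 fell, or 5 and 7 without ASC D. *P4ha2*, a prolyl hydroxylase subunit needed for stable triple helices, went from 73.1 to 102 CPM to 6.0 to 22.6 CPM (-2.77, SE 0.25, adjusted p = 1.27e-06). Its relative *P4ha3* rose from at most 0.250 CPM to 2.02 to 17.0 CPM (6.31, SE 1.04, adjusted p = 1.99e-04, and 5.32 without ASC D). *P4ha1* (-0.92), *P3h3* (-1.45), *Colgalt1* (-0.63) and *Mia3* (-0.30) also fell. The chaperone genes *Serpinh1* (0.90), *P4hb* (0.94) and *Ppib* (1.03) rose, as did *Plod3* (0.67). Of 12 processing and crosslinking genes, 6 rose and 3 fell, or 6 and 4 without ASC D. *Adamts14*, which trims the amino end of procollagens, rose from 7.79 to 24.8 CPM to 76.1 to 197 CPM (3.39, adjusted p = 1.57e-07), with ASC D the lowest of the ASC libraries. *Bmp1*, which trims the other end, fell from 273 to 355 CPM to 60.5 to 173 CPM (-1.67, adjusted p = 1.65e-05). The crosslinking oxidases *Loxl4* (4.62) and *Lox* (2.03, and 1.40 without ASC D) and the processing genes *Adamts3* (1.63) and *Pcolce* (1.10) rose. *Loxl1* (-1.19) and *Loxl2* (-0.84) fell.

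Of 14 collagen receptor genes, 5 were called higher and 3 lower, beside the same 31.1% and 27.8% of all genes. Without ASC D, 2 were called higher and 4 lower, beside 30.1% and 30.6% of all genes. *Calcr*, the receptor through which collagen V acts on satellite cells, fell from 125, 232 and 264 CPM in QSCs to 0.876, 1.88 and 3.32 CPM in ASCs. Groups were far apart, and the log2 fold change was -6.79 (SE 0.34, adjusted p = 9.53e-09). *Mrc2*, an endocytic collagen receptor, fell from 211 to 363 CPM to 14.7 to 86.8 CPM (-3.01, adjusted p = 2.37e-05), and *Antxr2* fell less (-0.49, adjusted p = 0.00341). *Ddr2*, which binds fibrillar collagens, rose from 82.8 to 162 CPM to 187 to 339.6 CPM (1.19, adjusted p = 3.02e-05). The receptors *Itga2* (2.65), *Itga1* (1.77) and *Lair1* (2.05), were called higher and were highest in ASC D. *Itga1* and *Lair1* did not pass without it (adjusted p = 0.0570 and 0.331). *Itgb1* rose slightly with it (0.35, adjusted p = 0.0200) and not without it (adjusted p = 0.0540).

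Loss of *Gli3* in quiescence was compared over the 6 QSC libraries. Of the 43 collagen genes, 1 was called, against 0.351% of all genes (88 of 25093). This gene was *Col26a1*, which encodes a secreted collagen with short collagenous domains and lies at chr5:136741759-136883209 on the minus strand (GRCm38). It was at 12.5, 8.95 and 10.4 CPM in control QSCs and at 22.7, 27.0 and 24.5 CPM in *Gli3*-deleted QSCs. Every *Gli3*-deleted library was above every control library, and the log2 fold change was 1.19 (SE 0.17, adjusted p = 0.0226). Leaving out control QSC 2 or any of the 3 *Gli3*-deleted libraries ended the call, with adjusted p of 0.0304 to 0.144 and log2 fold changes of 1.08 to 1.31 over the 6 fits without 1 library. *Col26a1* was lower still in ASCs, at 4.09 to 7.56 CPM (-1.44 against all QSCs, SE 0.17, adjusted p = 1.08e-05, and -0.83 against control QSCs alone). It overlaps a predicted gene on the same strand, *Gm20485*, which reached at most 1.83 CPM.

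**Figure D5:**
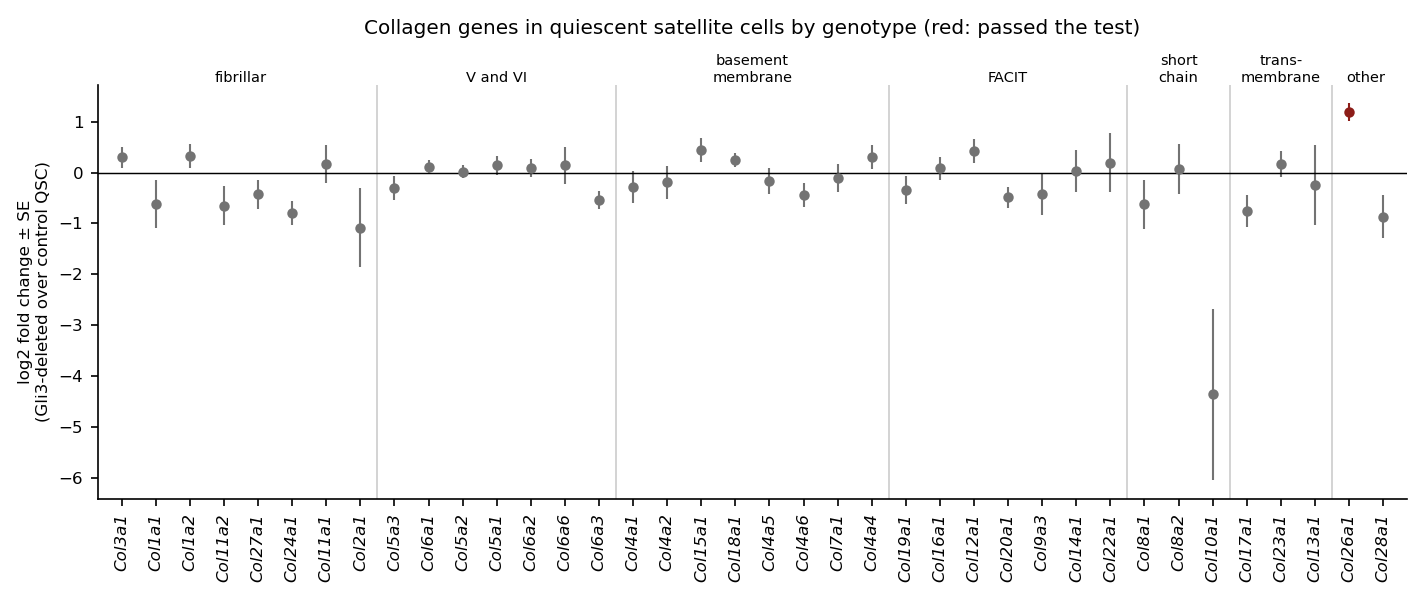
Log2 fold change of *Gli3*-deleted over control QSCs with its standard error for 38 collagen genes, by class. *Col26a1* (1.19) is the point that passed the test, and *Col10a1* lies at -4.36 with a standard error of 1.68 on counts near 0.

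Genotypes did not overlap for 7 of the 43 genes, while 13.1% of all genes were apart in this way. Besides *Col26a1* these were *Col24a1*, *Col6a3*, *Col20a1*, *Col18a1*, *Col9a1* and *Col25a1*. *Col24a1* was at 2.72, 3.03 and 2.57 CPM in controls and 1.63, 1.77 and 1.54 CPM after deletion (-0.79, SE 0.24, adjusted p = 0.427). *Col6a3* was at 15.4, 13.5 and 17.8 CPM and at 9.67, 12.6 and 10.8 CPM (-0.54, SE 0.18, adjusted p = 0.499). *Col20a1* was at 26.6, 25.2 and 38.2 CPM and at 22.9, 24.4 and 18.3 CPM (-0.49, SE 0.20, adjusted p = 0.665). *Col18a1* was at 96.1, 83.0 and 97.4 CPM and at 99.3, 122 and 112 CPM (0.24, SE 0.14, adjusted p = 0.831). None of these 4 passed the test. Schwann cell markers moved with genotype too, at summed CPM of 69.8 to 100.1 in controls and 34.2 to 51.1 after deletion. None of the 6 markers was called. The part of these markers in the collagen values was not tested.

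By class, none of the abundant chains passed the test between genotypes in QSCs. Collagens V and VI ran from -0.54 to 0.14, with *Col5a2* at 0.02 (SE 0.13), *Col5a1* at 0.14 (SE 0.19), *Col5a3* at -0.30 (SE 0.24), *Col6a1* at 0.11 (SE 0.14) and *Col6a2* at 0.09 (SE 0.17). Basement membrane genes ran from -0.44 to 0.62, with *Col4a1* at -0.28 (SE 0.32), *Col4a2* at -0.19 (SE 0.32) and *Col15a1* at 0.44 (SE 0.24). *Col4a1* was at 1100, 1019 and 2503 CPM in controls and at 1331, 1347 and 1233 CPM after deletion, and leaving out control QSC 3 turned *Col4a1* to 0.28, *Col4a2* to 0.38 and *Col1a1* to -0.02. Fibrillar genes ran from -1.08 to 0.33, with *Col3a1* at 0.30 (SE 0.21), *Col1a1* at -0.61 (SE 0.47) and *Col1a2* at 0.33 (SE 0.24). FACIT genes ran from -0.82 to 1.18, both ends in genes with a mean under 1 CPM. *Col10a1*, at -4.36 (SE 1.68), rests on control QSC 1 at 2.22 CPM, with every other QSC library at or under 0.103 CPM. A p above the threshold does not show that the genotypes are alike at these sizes of error.

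None of the 43 collagen-modifying, processing and receptor genes was called between genotypes by edgeR. Of these, 6 had an unadjusted p under 0.05, as had 1785 of all 25093 genes, and DESeq2 called 1, *Adamts14*, beside 1.64% of the genes to which it gave an adjusted p. It was at 7.79, 11 and 15 CPM in controls and at 24.8, 23.5 and 19.7 CPM after deletion (0.97, SE 0.25, adjusted p = 0.268). The groups did not overlap. *Ddr2*, the fibrillar collagen receptor that rose in ASCs, was at 154, 111 and 162 CPM in controls and at 82.8, 121 and 84.9 CPM after deletion, which overlap (-0.60, SE 0.20, adjusted p = 0.494). *Calcr* was at 260, 211 and 125 CPM and at 264, 236 and 228 CPM (0.26, SE 0.23, adjusted p = 0.903).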

How the data were processed

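RNA was measured in 12 libraries of sorted satellite cells by stranded poly(A) RNA-seq from 20 ng of total RNA. The authors quantified reads with Salmon 0.13.1 on GRCm38 (GENCODE transcripts), summed them to genes and kept genes with at least 5 reads in at least 2 samples. The deposited values are estimated counts per gene, 48% of them not whole. They were rounded, and 36886130 to 65750131 estimated counts per library set the counting precision. The deposited comparison tables hold the authors' fold changes and p-values, which were not used, and only the gene biotype was read from one. ASC columns carry animal numbers that match no label, so they were assigned to the ASC group and not to single samples.

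Counts were tested with edgeR 4.0.16 (TMM, quasi-likelihood F test, R 4.3.3) over all 25093 genes with Benjamini-Hochberg adjustment, and a gene was called where its adjusted p was below 0.05 and it moved 1.2-fold or more, as in the study's methods. Genotype used the 6 QSC libraries, and activation used all 12 in 3 groups, ASCs against the mean of both QSC groups. SE is the log2 fold change divided by the square root of F. Scripts were tested on simulated data. CPM per kb divides TMM-normalised CPM by the longest protein-coding transcript of GENCODE vM21, which held 99.9% of the gene identifiers. Collagen genes with a mean of at least 1 CPM were named with their values and the others counted. Of pathway genes, all called were eligible, up to the 5 largest changes in each direction of each comparison, and further ones were named after their values were seen, as were partner-chain ratios. Members and gene lists were chosen with earlier results of these data known. Alternatives were DESeq2 1.42.0, DESeq2 size factors, 2 filters on low counts, no minimum fold change, leaving out each library, a replicate block and ASCs against control QSCs alone. No pair of libraries of one group agreed within counting noise (chi-square per gene 36.1 to 409, where 1 is expected). Libraries of one group are separate mice or pools of mice. Some collagen genes overlap others (*Col18a1* and *Slc19a1* on opposite strands, *Col20a1* and *9230112E08Rik* on the same strand), and the strand setting of the quantification is not given in the sources used here.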

Additional observations from a re-analysis of the deposited data

Results flagged for a closer look

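The 39 genes tested for an outlying ASC library were the 38 collagen genes with a mean of at least 1 CPM and *Col4a3bp*. In 23 of them, all collagen genes, 1 ASC library lay so far above the other 5 that its gap to the nearest of them exceeded Dixon's critical value for 6 samples. In all 23 it was ASC D. For normally distributed values, chance alone would pass this limit in about 1 of 20 genes, counting gaps at either end. CPM were used untransformed and need not be normal, so the rate for these genes is not known. Genes of 1 library are also not independent. Among fibrillar genes, in CPM, the values of ASC D were *Col3a1* 3482 (others 474 to 707), *Col1a1* 2934 (others 118 to 376) and *Col1a2* 3637 (others 569 to 994), and further *Col24a1* 12.6, *Col11a1* 68.3 and *Col2a1* 44.8. For collagens V and VI they were *Col6a1* 608 (others 37.2 to 117), *Col5a1* 610 (others 49.2 to 157), *Col6a2* 492 (others 25.8 to 79.5) and *Col6a3* 767 (others 31.4 to 77.4). For basement membrane genes they were *Col4a1* 1021 (others 70.2 to 202), *Col4a2* 735 (others 49.9 to 120.2), *Col15a1* 182 (others 8.44 to 24.8) and *Col4a4* 6.08 (others 0.425 to 2.04). The FACIT genes were at *Col16a1* 288, *Col12a1* 254, *Col20a1* 679, *Col9a3* 11.8 and *Col14a1* 62.9, and the remaining ones at *Col8a1* 116, *Col8a2* 6.27, *Col10a1* 17.2 and *Col28a1* 40.3. *Col13a1* and *Col19a1* were not among them, at 1.02 and 0.447 times the median of the other ASC libraries. Among ASCs the same library had the highest sums of macrophage, Schwann cell, tenocyte, endothelial, mural and fibro-adipogenic markers, although the sort gated out cells positive for CD31, CD45, SCA1 or CD11b. The part of these markers in its collagen values was not tested.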

How the results depend on the processing

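The 1 collagen gene called between genotypes, *Col26a1*, fell to 0 genes with the replicate number as a block (adjusted p = 0.0991), and the count was 0 to 1 with 1 library left out. The numbers did not pair the libraries, since same-numbered control and *Gli3*-deleted libraries deviated from their group means with correlations of -0.165, -0.0754 and -0.0464. DESeq2 called 1 pathway gene between genotypes where edgeR called 0, and leaving out 1 library gave 0 to 0. Over all genes DESeq2 called 384 against 88 by edgeR, and a minimum of 10 counts in every library left 48. Between ASCs and QSCs, 31 collagen genes became 20 when ASCs were set against the control QSCs alone. *Col3a1*, *Col1a1*, *Col6a1*, *Col4a2*, *Col4a4*, *Col7a1*, *Col9a3*, *Col20a1*, *Col10a1*, *Col23a1* and *Col28a1* no longer passed there. All 12 libraries stayed in that fit, and only the QSC groups compared with ASCs differed. The 31 genes became 26 to 34 with 1 library left out. The 29 pathway genes became 25 to 28 with 1 library left out. DESeq2 called 26 of the 33 collagen genes to which it gave an adjusted p, 25 of them shared with edgeR, and gave none to 10, *Col4a1* and *Col6a3* among them. DESeq2 size factors gave 32, edgeR's own low-count filter 32 and the minimum of 10 counts 27. With 1 library left out, the log2 fold change of *Col24a1* ran from -1.29 to 0.69 and that of *Col16a1* from -1.46 to 0.29, and both were lowest, and passed the test as falls, without ASC D. No gene that passed with all libraries changed sign under an alternative. Of genes that did not pass, 14 changed sign between genotypes and 4 between ASCs and QSCs (*Col11a2*, *Col12a1*, *Col16a1* and *Col24a1*). Of 649 values for ASCs against QSCs under alternatives, 584 kept their side of the threshold, 55 no longer passed, 8 passed newly and 2 were those of opposite sign, and of 425 genotype values 420 kept it and 5 no longer passed. With 3 libraries per genotype, genotype differences of the size of their standard errors could not be told from 0. ASC libraries could not be split by genotype.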
